A study of Sus scrofa with 16 samples.

Results

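PI16, SFRP2, PAMR1, CDH11 and ANGPTL1 are 5 of the 3875 genes counted in satellite cells (SCs) of dystrophic and healthy piglets, and are genes associated with fibro-adipogenic progenitors. They were taken by symbol from the count table, and all 5 were present. They were selected on their levels in these same 4 groups of samples, so the levels and fold changes given for them are a description and carry no test. The samples are SCs of the INT (intercostalis) muscle of 4 DMD and 4 WT male piglets at 3 days of age. The DMD pigs carry a deletion of exon 52 of the DMD gene, which encodes dystrophin, and the WT pigs carry none. The cells were enriched magnetically, by removal of cells with CD31 (endothelial) or CD45 (blood) and selection on ITGB1, NCAM1 and M-cadherin, and were used at passage 6. Each animal gave 1 sample in differentiation (DIFF), after 10 days in medium with reduced horse serum by the sequencing methods and 7 days by the culture methods, and 1 sample in proliferation (PROL), in growth medium with fetal bovine serum and basic fibroblast growth factor. The 16 samples thus form 4 groups of 4, DMD DIFF, WT DIFF, DMD PROL and WT PROL, and a replicate number within a genotype stands for the same animal in both states.

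Fibro-adipogenic progenitors are mesenchymal cells of the muscle interstitium. They do not form muscle fibres. They supply matrix and growth factors to SCs during regeneration, and can become matrix-producing fibroblasts or fat cells, which replace muscle in dystrophy. SFRP2, ANGPTL1, PI16 and PAMR1 encode secreted proteins: a modulator that binds Wnt ligands, a relative of the angiopoietins, a CAP-domain protein (peptidase inhibitor 16) that marks progenitor-like fibroblasts in mouse and human, and a peptidase-like protein named for its link with muscle regeneration. CDH11 encodes cadherin-11, a calcium-dependent adhesion protein of mesenchymal cells. None of them is a muscle structural gene.

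The libraries held 1110050 to 1781174 counts, and RN18S, the 18S ribosomal RNA gene, took 6.32% to 20.4% of them, the highest share being in DMD PROL replicate 4. Levels are given as CPM, the counts divided by the library's total and scaled to a common size, with TMM factors (a trimmed mean that balances libraries of unlike composition), which ran from 0.864 to 1.17 and were lowest in WT DIFF and highest in WT PROL. The DMD gene had 30 to 48 counts per library in DMD DIFF against 12 to 22 in WT DIFF, and 24 to 32 in DMD PROL against 6 in each WT PROL library. The reads tag the 3′ ends of transcripts, so they do not check the deletion of exon 52. Of the markers of the labelled cell type, DES (desmin) was read in all groups. It averaged 2055 ± 174 CPM in DMD DIFF, 271 ± 77.9 CPM in WT DIFF, 1169 ± 204 CPM in DMD PROL and 70.9 ± 9.99 CPM in WT PROL (SD, n = 4 each). The myogenic factor MYF5 had 40 counts in DMD DIFF and 30 in DMD PROL and no count in the 8 WT libraries. MYOD1 had 16 counts in DMD DIFF and 52 in DMD PROL, against 4 in WT DIFF and 8 in WT PROL. MYF6 had 22 and 76 against 4 and 8, and MYOG 268 and 84 against 32 and 6, in the same order. SDC4 (syndecan-4), also among the myogenic markers, went the other way, with 16 and 16 counts against 38 and 26. PAX7 was not among the myogenic markers counted.

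SFRP2 was lower in DMD than in WT SCs in both states, and higher in DIFF than in PROL in both genotypes. It stood at 2727, 1932, 1643 and 2857 CPM in DMD DIFF (replicates 1 to 4), against 10971, 6961, 12824 and 12030 CPM in WT DIFF. In PROL the levels were 407, 391, 383 and 363 CPM in DMD, against 2531, 2298, 4339 and 2315 CPM in WT. No DMD library reached a WT library of its state, and WT replicate 3 was the highest of its group in both states. The log2 fold change of DMD over WT was −2.23 in DIFF, a level 4.69-fold lower, and −2.90 in PROL, 7.48-fold lower. DIFF over PROL came to 2.56 in DMD and 1.88 in WT SCs on the log2 scale, or 5.89-fold and 3.68-fold. The order of the groups was WT DIFF, then WT PROL and DMD DIFF, whose libraries overlapped, then DMD PROL.

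**Figure D1:**
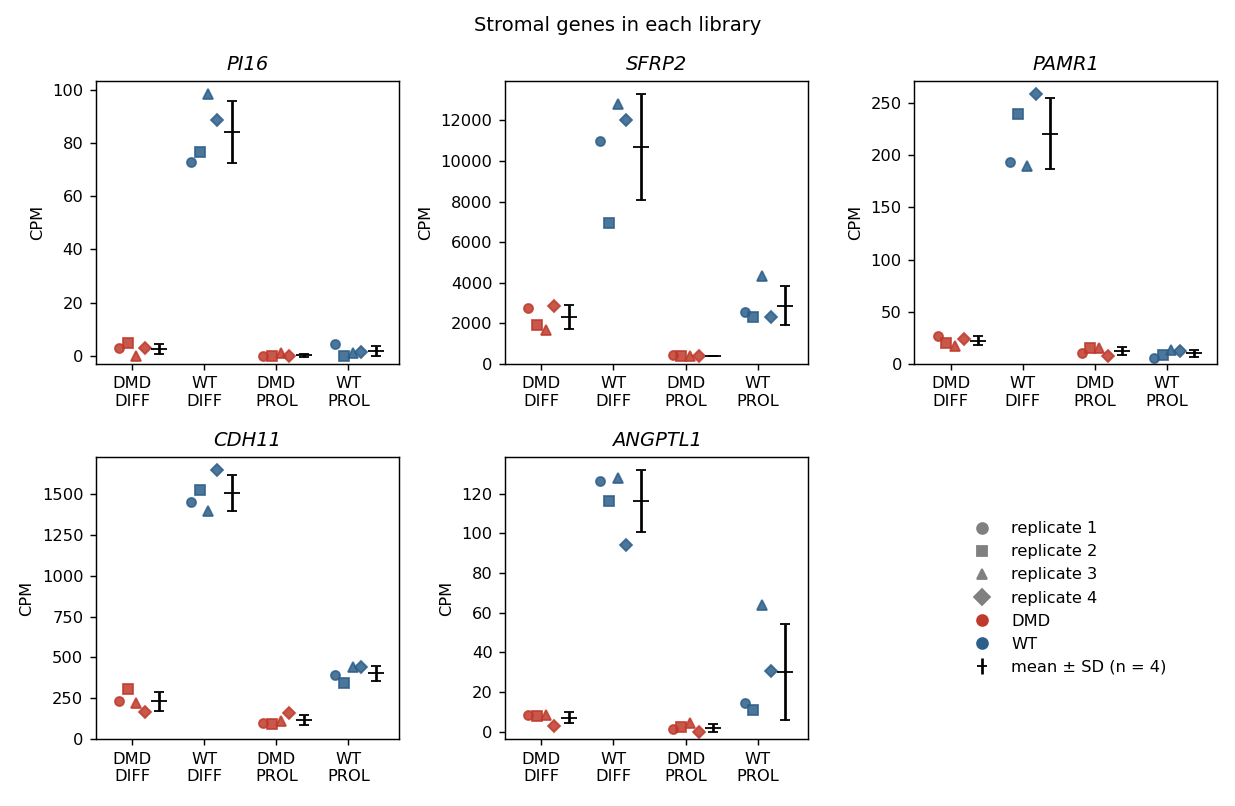
CPM (TMM-scaled, linear axes from near 0) of PI16, SFRP2, PAMR1, CDH11 and ANGPTL1 in each library, by group, with symbols for the 4 animals of a genotype and a bar for the mean ± SD (n = 4). In all 5 panels the 4 WT DIFF libraries lie above every other library, for PI16 at 72.9 to 98.3 CPM, while the remaining groups differ in order from gene to gene.

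CDH11 was likewise lower in DMD than in WT SCs in both states and higher in DIFF than in PROL. Its level was 234, 308, 222 and 168 CPM in DMD DIFF, against 1450, 1523, 1394 and 1647 CPM in WT DIFF. In DMD PROL it was 101, 93.5, 112 and 163 CPM, against 392, 346, 442 and 440 CPM in WT PROL. The 4 groups did not overlap, in the order WT DIFF, WT PROL, DMD DIFF, DMD PROL, although the highest DMD PROL library (replicate 4) lay next to the lowest DMD DIFF library, which came from the same animal. DMD over WT was −2.69 (6.47-fold lower) in DIFF and −1.80 (3.48-fold lower) in PROL on the log2 scale. DIFF over PROL was 0.98 in DMD SCs (1.98-fold) and 1.88 in WT SCs (3.67-fold). In the DMD animals this change ran from 3.29-fold in replicate 2 to 1.03-fold in replicate 4.

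ANGPTL1 was low in DMD SCs in both states, so its fold changes rest on few counts. DMD DIFF held 8.40, 8.16, 8.64 and 2.85 CPM (42 counts in all), against 127, 116, 128 and 93.9 CPM in WT DIFF. DMD PROL held 1.23, 2.53, 4.66 and 0 CPM (14 counts in all), against 14.6, 11.2, 64.1 and 30.8 CPM in WT PROL. The WT animals differed widely in PROL: replicate 3 alone gave 118 of the 196 counts. DMD over WT was −4.03 (16.4-fold lower) in DIFF and −3.78 (13.7-fold lower) in PROL. The PROL value was −3.09 without WT replicate 3 and −4.51 without DMD replicate 3. In WT SCs DIFF over PROL was 1.90 on the log2 scale, and 2.58 without replicate 3. In DMD SCs the gene did not pass the filter on low counts. The pooled counts there gave a DIFF to PROL ratio of 3.26, with a 95% interval of 1.74 to 6.46 (exact conditional binomial, covering counting error only). With the counts halved the interval was 1.33 to 9.07. The DIFF level was the higher of the pair in all 4 animals.

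PAMR1 overlapped between DMD and WT libraries in PROL and stood apart in DIFF. In PROL it had 9.84, 15.2, 15.1 and 7.87 CPM in DMD, against 5.82, 8.69, 13.0 and 12.3 CPM in WT, a log2 fold change of 0.25. In DIFF it had 26.6, 19.8, 17.3 and 24.2 CPM in DMD, against 194, 240, 190 and 259 CPM in WT. The groups were then well apart, with DMD 10.1-fold lower (log2 fold change −3.33). DIFF over PROL was 0.85 in DMD SCs (1.80-fold) and 4.43 in WT SCs (21.5-fold). Each WT animal showed the change at 14.6-fold to 33.3-fold, and each DMD animal at 1.14-fold to 3.07-fold, so that the ranges of the animals did not overlap.

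PI16 was near 0 outside WT DIFF. DMD DIFF held 2.80, 4.66, 0 and 2.85 CPM (16 counts in all), against 72.9, 76.6, 98.3 and 88.5 CPM (492 counts) in WT DIFF. DMD PROL held 0, 0, 1.16 and 0 CPM (2 counts), against 4.37, 0, 1.09 and 1.54 CPM (10 counts) in WT PROL. DMD DIFF, DMD PROL and WT PROL overlapped, and their levels could not be put in order at this depth. In DIFF the log2 fold change of DMD over WT was −4.94, a level 30.6-fold lower. In WT SCs DIFF over PROL was 5.59, which rests on the 10 PROL counts and came to 6.55 without WT replicate 1. The gene did not pass the filter in the comparison of the genotypes in PROL or of the states in DMD SCs. The PROL counts gave a DMD to WT ratio of 0.190 with a 95% interval of 0.0202 to 0.891, and the DMD counts a DIFF to PROL ratio of 8.69 with an interval of 2.04 to 77.9. All deposited counts are even numbers, and with each counted as a pair the first interval widened to 0.00402 to 1.70 and the other to 1.16 to 386.

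Across the 5 genes, no DMD library reached a WT library in 5 of 5 genes in DIFF and in 3 of 5 in PROL (SFRP2, CDH11 and ANGPTL1). Among all genes tested, 23.2% had such a pattern in DIFF and 14.3% in PROL. Every DIFF library lay above every PROL library in 3 of 5 genes in DMD SCs (SFRP2, PAMR1 and CDH11) and in 5 of 5 in WT SCs, against 21.7% and 23.6% of all genes tested in those comparisons. Since the genes were chosen with these levels known, nothing is read from the counts. In a bulk sample, fewer cells of a type and less of its RNA per cell cannot be told apart.

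**Figure D2:**
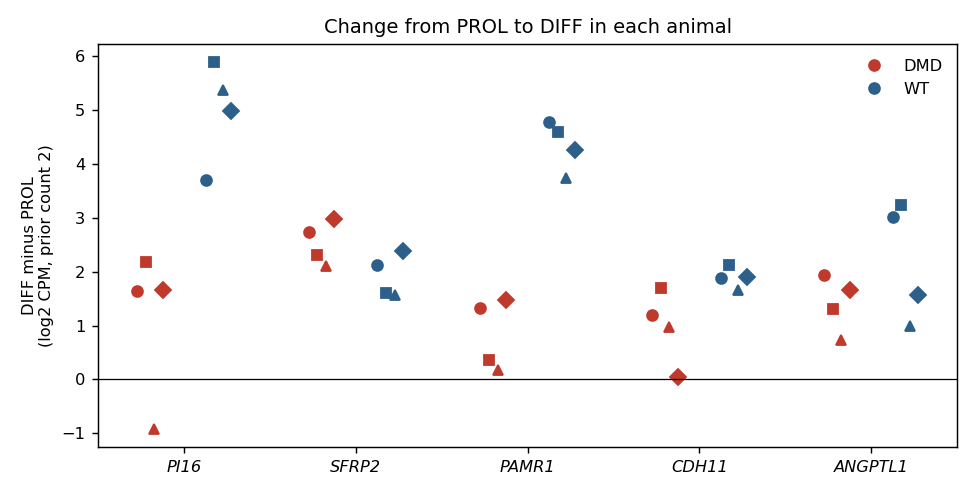
Change from PROL to DIFF within each animal (DIFF minus PROL, log2 CPM with a prior count of 2) for the 5 genes, with DMD animals left of WT animals and the same symbols for the animals as in the plot of levels. PAMR1 and PI16 show a gap between the genotypes, CDH11, ANGPTL1 and SFRP2 do not, and PI16 in DMD replicate 3 is the single point below 0.

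The state change differed in kind between the genes. The difference of the state change between the genotypes (DMD minus WT, log2, in a fit of all 16 libraries) was −3.58 for PAMR1, −2.79 for PI16, −0.90 for CDH11, −0.25 for ANGPTL1 and 0.67 for SFRP2. The value of PI16 rests on 2 counts in DMD PROL and 10 in WT PROL. Of the 5, SFRP2 had a larger fold change in the DMD animals, 4.29-fold to 7.86-fold, than in the WT animals, 2.96-fold to 5.20-fold, and these ranges overlapped. Over all genes tested, 23.5% were called in this fit in either direction. Scaling by library size alone moved the median of all genes by 0.28 in this difference, and the value of ANGPTL1 is smaller than that shift.

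The animals were then compared within their groups, by the deviation of each library from its group mean (log2 CPM). In WT PROL replicate 3 had the highest level of SFRP2, PAMR1, CDH11 and ANGPTL1, at 4339, 13.0, 442 and 64.1 CPM, while PI16 was highest in replicate 1, at 4.37 CPM. In WT DIFF replicate 3 led for PI16, SFRP2 and ANGPTL1 and replicate 4 for PAMR1 and CDH11. No DMD animal led in both states for more than 1 gene: replicate 3 led in PROL for PI16 and ANGPTL1 and in DIFF for ANGPTL1, and replicates 1, 2 and 4 led for the others. All 5 genes were above the group mean in DMD DIFF replicate 1 and all 5 below it in WT PROL replicate 2, and in the other 14 libraries the signs were mixed. Their SD ran from 0.068 for SFRP2 in DMD PROL and 0.10 for CDH11 in WT DIFF to 0.95 for PI16 in DMD DIFF and 1.08 for ANGPTL1 in WT PROL. In its other 3 groups SFRP2 had an SD of 0.39 to 0.44.

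**Figure D3:**
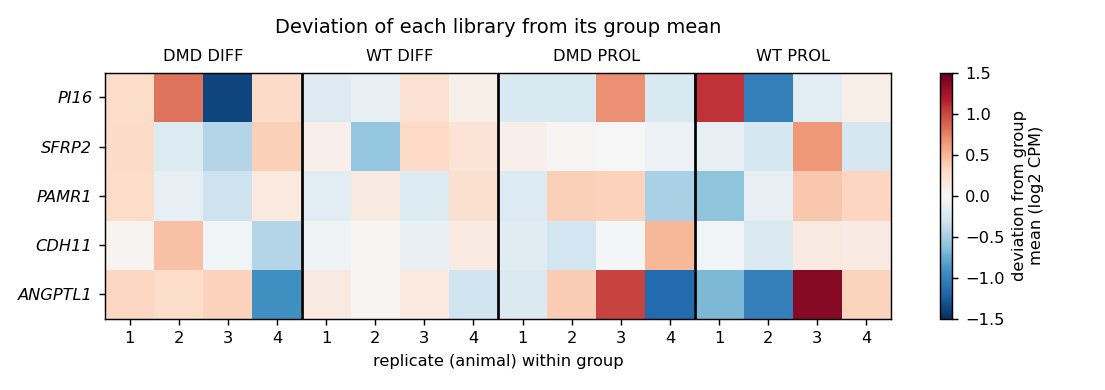
Deviation of each library from the mean of its group (log2 CPM, prior count 2, colour scale from −1.5 to 1.5) for the 5 genes, by group and animal. WT PROL replicate 3 is above its group mean for 4 of 5 genes and DMD DIFF replicate 1 for 5 of 5, while WT PROL replicate 2 is below for 5 of 5.

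Over the 16 libraries, levels of the 10 pairs of genes correlated with r between 0.755 (SFRP2 and PAMR1) and 0.936 (PI16 and PAMR1). These points share the 4 group means, the animals and the library scaling. With the group means removed, r ranged from −0.179 (PAMR1 and CDH11) to 0.593 (PAMR1 and ANGPTL1). PAMR1 and ANGPTL1 had r = 0.858 over the 8 PROL libraries and −0.466 over the 8 DIFF libraries, and SFRP2 and ANGPTL1 had 0.655 in PROL and −0.426 in DIFF. CDH11 and ANGPTL1 went the other way, with −0.130 in PROL and 0.632 in DIFF. SFRP2 and PAMR1 were alike in both states, with 0.377 in PROL and 0.339 in DIFF. In each state the points are 8 libraries of 2 groups, so these values describe the libraries and no more. The PROL deviations of PAMR1 and ANGPTL1 also rest on few counts. PAMR1 had 12 to 26 counts per library in DMD PROL and 8 to 24 in WT PROL, and ANGPTL1 had 0 to 8 in DMD PROL.

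The genes most like each in their levels over the 16 libraries were read from all genes that passed the filter, with the 5 left out. PAMR1 was most like ITM2B, a membrane protein of the BRI family (r = 0.978), SFRP2 like PLAU, the urokinase-type plasminogen activator (0.955), and CDH11 and ANGPTL1 like IL6ST, the shared receptor subunit gp130 (0.972 and 0.939). DCN, the matrix proteoglycan decorin, and MMP2, a gelatinase, came next for ANGPTL1 (0.939 and 0.927). CAT, which encodes catalase, and ITM2B were among the 3 most like PI16 (0.955 and 0.954), and SEPP1, which encodes selenoprotein P, was the third for PAMR1 (0.962). SEC62, of the translocation machinery of the endoplasmic reticulum, was the third for both SFRP2 and CDH11 (0.943 and 0.964), behind SCAMP2 (0.945) and the complement gene C2 (0.965).

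These like genes had the WT DIFF peak in common, which follows from the pick, since all 5 genes peak there. CAT averaged 271 ± 19.8 CPM in DMD DIFF against 3056 ± 630 CPM in WT DIFF, and 166 ± 22.3 CPM in DMD PROL against 231 ± 10.4 CPM in WT PROL. DCN averaged 385 ± 63.2 CPM in DMD DIFF against 7206 ± 673 CPM in WT DIFF, and 225 ± 41.2 CPM in DMD PROL against 1664 ± 371 CPM in WT PROL. In PROL the genotypes were thus nearer for CAT, as they were for PAMR1, and far apart for DCN, as they were for CDH11 and ANGPTL1. By deviations within groups, with the 4 group means removed, other genes were most like the 5, namely FBXO32 for PI16 (r = 0.812), WTAP for SFRP2 (0.795), RENBP for PAMR1 (0.832), PTF-BETA for CDH11 (0.857) and SRSF11 for ANGPTL1 (0.846). Each r by deviations is the highest of many genes over 16 libraries, so a high value can come from the pick alone. Nothing is read from it. The deviations of PI16 also rest on few counts outside WT DIFF. No gene was among the top 3 by both measures.

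Other genes of stromal progenitors were tested with edgeR's quasi-likelihood test across all genes, and called where the log2 fold change exceeded 0.6 in size and p, adjusted by Benjamini and Hochberg, was below 0.05. Of a list of 69 such genes, which holds none of the 5, 26 were counted, and PDGFRA, the usual surface marker of these cells, was not among the 26. In DIFF 21 were tested: 11 fell in DMD relative to WT and 5 rose, against 17.5% of all genes called lower and 16.1% called higher. The median log2 fold change was −1.16, against −0.031 over all genes tested. In PROL 18 were tested: 8 fell and 3 rose, against 9.87% and 8.36% of all genes, with a median of −0.86 against −0.0021.

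The genes that fell in DIFF hold small proteoglycans, fibrillar matrix and secreted factors. DCN fell by 4.23 on the log2 scale (SE 0.13, edgeR adjusted p = 2.43e-13), 18.8-fold lower in all. COL3A1, a chain of fibrillar collagen, fell to 1568 ± 247 CPM in DMD DIFF, against 4818 ± 93.0 CPM in WT DIFF (log2 −1.63, edgeR adjusted p = 5.27e-09). EFEMP1, which encodes the matrix glycoprotein fibulin-3, fell to 44.6 ± 7.76 CPM in DMD DIFF, against 564 ± 147 CPM in WT DIFF (log2 −3.67, edgeR adjusted p = 2.03e-08). FBN1, fibrillin-1, fell by 0.89 (edgeR adjusted p = 8.67e-06). CXCL12, a chemokine, had the steepest fall of the list genes that passed the filter in DIFF, by 4.73, with 10 counts in DMD DIFF and 268 in WT DIFF, and was picked out after its value was seen. The surface marker THY1 fell by 2.30 (edgeR adjusted p = 0.00178), with 5.69 to 8.64 CPM in DMD DIFF and 5.50 to 49.0 CPM in WT DIFF, of which replicate 1 overlapped DMD.

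The 5 genes that rose in DIFF were COL5A2 and COL5A1, chains of type V collagen, IGF1, a growth factor, IGFBP5, an IGF-binding protein, and the chemokine CXCL14. COL5A2 stood at 1520 ± 247 CPM in DMD DIFF against 716 ± 84.4 CPM in WT DIFF (log2 1.08, edgeR adjusted p = 1.87e-06). COL5A1 rose by 1.64, IGF1 by 1.61, IGFBP5 by 1.53 and CXCL14 by 2.06. They were thus higher in the libraries in which the 5 genes described above were lower.

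In PROL the falls with the smallest p were those of PLAC9, a small secreted protein, by 1.28 (edgeR adjusted p = 5.25e-07), DCN by 2.90 (1.60e-06), MFAP5, a protein of elastic microfibrils, by 1.89 (3.60e-06), and COL3A1 by 1.06 (9.78e-06). ENG, IGFBP6, FBN1 and COL1A2 fell as well, COL1A2 with a log2 fold change of −0.64 that was −0.57 without WT replicate 2. The 3 that rose were EFEMP1 by 1.21 (edgeR adjusted p = 0.0427), the surface peptidase DPP4 by 0.91 (0.0172) and the growth factor BMP4 by 0.81 (0.00846). EFEMP1 lost its call when any 1 of 6 libraries was left out (edgeR adjusted p 0.0619 to 0.0954, DMD replicates 1 to 4 and WT replicates 3 and 4) and with library size alone (0.0775) or no filter (0.108), and DPP4 when DMD replicate 1 (0.0548) or 2 (0.0581) was. EFEMP1 and BMP4 rose in PROL and fell in DIFF. DPP4 was at 20.2 ± 4.84 CPM in DMD DIFF and 19.2 ± 7.66 CPM in WT DIFF (log2 0.07, SE 0.35). CD34, a surface marker of these cells in mouse, did not pass the filter, with 2 counts in DMD DIFF against 32 in WT DIFF, and again 2 in DMD PROL against 32 in WT PROL.

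**Figure D4:**
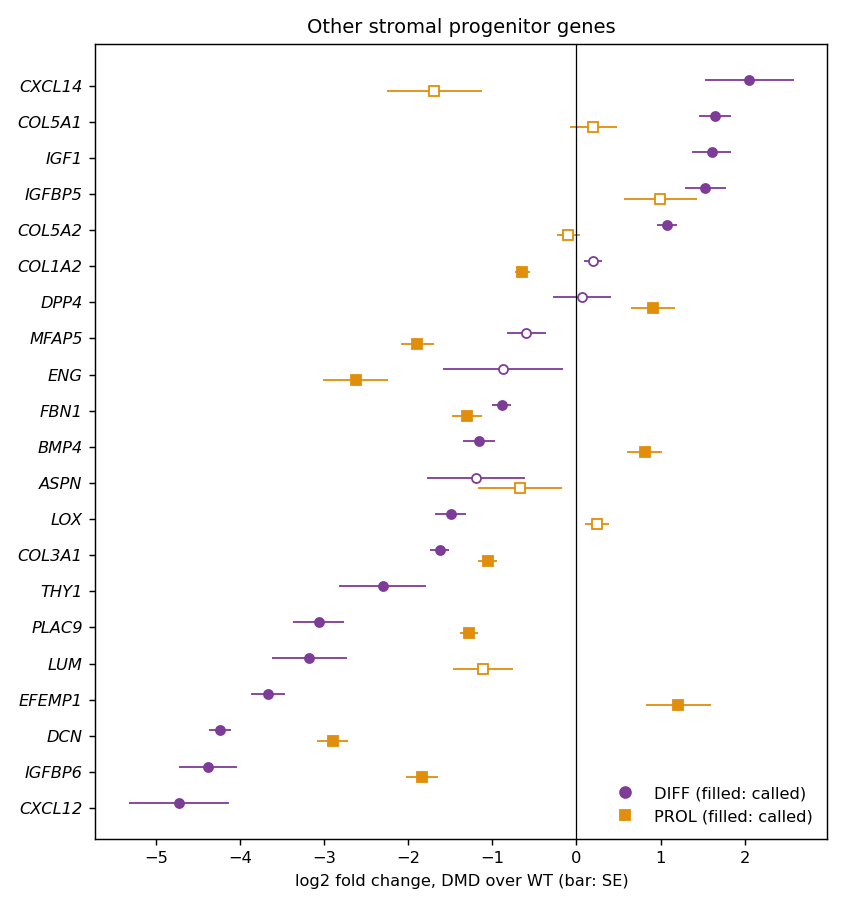
Log2 fold change of DMD over WT (edgeR, bars ± SE) in DIFF (circles) and PROL (squares) for the 21 genes of the stromal progenitor list tested in DIFF, filled where called. The genes run from CXCL14 and COL5A1, higher in DMD in DIFF, to DCN, IGFBP6 and CXCL12 at −4.23 to −4.73, and squares are absent for genes not tested in PROL.

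Between the states, 16 of the 22 list genes tested in WT SCs rose in DIFF relative to PROL and 1, ENG, fell (median log2 fold change 1.64), against 17.9% of all genes called higher and 14.3% called lower. In DMD SCs 11 of 18 rose and 3, IGFBP6, DPP4 and EFEMP1, fell (median 1.24), against 16.0% and 12.4% of all genes. DCN, for example, stood at 7206 ± 673 CPM in WT DIFF against 1664 ± 371 CPM in WT PROL, and FBN1 rose in both genotypes. With the scaling by library size alone the median of all genes in the WT comparison shifted by −0.35. The difference of the state change between the genotypes was called for 14 of 22 list genes, 6 with a positive and 8 with a negative difference of DMD minus WT SCs, against 23.5% of all genes in either direction. With library size alone these 14 kept their calls and signs, while the calls over all genes became 387 higher and 134 lower, against 215 and 262 with TMM.

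Markers of other cells moved with these groups. The summed level of the 16 counted myogenic markers was 26687 to 33713 CPM in DMD DIFF against 3864 to 7059 CPM in WT DIFF, and 8021 to 12657 CPM in DMD PROL against 408 to 596 CPM in WT PROL. All that were tested rose in DMD, 11 of 11 in DIFF (median log2 fold change 2.51) and 9 of 9 in PROL (4.28), against 16.1% and 8.36% of all genes called higher. The summed level of the 26 stromal genes went the other way, at 15172 to 20708 CPM in DMD DIFF against 30156 to 34518 CPM in WT DIFF, and 6144 to 7076 CPM in DMD PROL against 11384 to 13609 CPM in WT PROL. Both sums were higher in DIFF than in PROL in each genotype. A sum of CPM weighs the abundant genes most, and the stromal genes did not all move with theirs. In DIFF DCN averaged 385 CPM in DMD against 7206 CPM in WT, while COL1A2 averaged 9100 CPM against 7909 CPM. The part of these markers in the levels of the 5 genes was not tested.

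**Figure D5:**
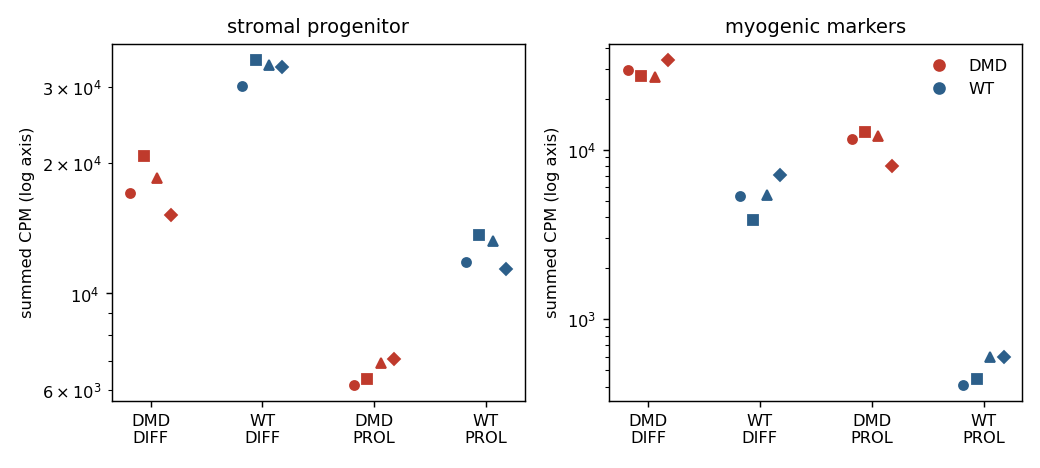
Summed CPM (log axes) of the 26 counted genes of the stromal progenitor list and of the 16 counted myogenic markers in each library, by group, with the same symbols for the animals. The stromal sum is higher in WT in both states, the myogenic sum is higher in DMD in both states, and no groups of a state overlap in either panel.

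Markers of the depleted cell types, endothelial and blood, summed to less than the stromal and the myogenic markers in every library. All samples were depleted, so the effect of the depletion was not tested. The summed level of the 4 counted endothelial markers was 27.4 to 49.0 CPM in DMD DIFF against 60.5 to 114 CPM in WT DIFF, and 13.5 to 28.9 CPM in DMD PROL against 107 to 134 CPM in WT PROL. The 2 tested, PECAM1 (CD31) and ERG, fell in both states, against 17.5% of all genes called lower in DIFF and 9.87% in PROL. The 11 counted blood cell markers, of which 4 had no count in any library, summed to 30.8 to 38.4 CPM in DMD DIFF against 59.9 to 71.5 CPM in WT DIFF. In PROL they summed to 33.2 to 54.7 CPM in DMD against 44.6 to 86.9 CPM in WT. Of the 2 tested in each state, CD14 fell in both (log2 −1.40 in DIFF and −0.71 in PROL), against the same shares, and TYROBP was not called. In PROL CD14 was not called without DMD replicate 1 or 4 or WT replicate 2 or 3 (edgeR adjusted p 0.0559 to 0.0875). The 4 glial markers summed to 2.91 CPM or less. RGS5, a pericyte gene, averaged 4.91 ± 3.71 CPM in DMD PROL against 105 ± 79.8 CPM in WT PROL, a fall by 4.40 (edgeR adjusted p = 0.00482), and 4.29 ± 4.55 CPM in DMD DIFF against 5.81 ± 3.30 CPM in WT DIFF. It is 1 of 5 counted pericyte and smooth muscle markers, which went different ways. In DIFF the 4 tested, ACTA2, DES, CNN1 and TAGLN, rose in DMD (log2 2.47 to 3.54), against 16.1% of all genes called higher. In PROL DES rose by 4.03 and RGS5 and CNN1 fell, against 8.36% of all genes called higher and 9.87% called lower, and ACTA2 and TAGLN were at 0.13 and −0.23. CNN1 in PROL (log2 −1.13, edgeR adjusted p = 0.0433) was not called when DMD replicate 1, 2 or 4 or WT replicate 1 or 3 was left out (0.0650 to 0.140), nor with the first (0.292) or second (0.0589) technical column alone. DES is a myogenic marker as well. The part of these markers too was not tested.

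Genes related to the 5 by family or pathway did not share one direction. The background was 16.1% of all genes higher and 17.5% lower in DIFF, and 8.36% and 9.87% in PROL. Of 13 counted Wnt genes, the setting of SFRP2, 7 were tested in DIFF, of which DKK3, a Dickkopf-related secreted protein, FZD2, a Wnt receptor, and GSK3B, a kinase of the pathway, rose in DMD, and FRZB, a secreted frizzled-related protein like SFRP2, fell. FRZB averaged 4.22 ± 3.98 CPM in DMD DIFF against 14.0 ± 5.97 CPM in WT DIFF (log2 −1.74, edgeR adjusted p = 0.0160), and was not called without DMD replicate 2 (0.0585) or WT replicate 2 (0.0719). DKK3 averaged 255 ± 13.4 CPM in DMD DIFF against 105 ± 23.2 CPM in WT DIFF, and 47.3 ± 6.07 CPM in DMD PROL against 130 ± 35.5 CPM in WT PROL, so that it rose in DIFF (log2 1.27) and fell in PROL (−1.46). FZD2 rose in PROL as well, by 1.82.

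Of 5 counted cadherin and catenin genes, beside CDH11, CDH13 fell in PROL (log2 −0.67, edgeR adjusted p = 0.0112), PCDH7 and JUP fell in DIFF (−1.10 and −0.62) and VCL, vinculin, rose in DIFF (1.13). CDH13 came to −0.52 without WT replicate 3, and JUP to −0.59 without DMD replicate 2, −0.53 without DMD replicate 4 and −0.53 without WT replicate 4, all short of the threshold on the fold change. The log2 fold changes of CDH11, −1.80 in PROL and −2.69 in DIFF, were larger in size than each of these. Of the angiopoietin group, beside ANGPTL1, 3 of 6 counted genes were tested in PROL and ANGPTL4 fell (log2 −2.81, edgeR adjusted p = 1.09e-06), while neither of the 2 tested in DIFF was called. The other CAP-domain gene counted, CRISP2, had 2 counts in all.

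Fibrosis and fat are the known fates of fibro-adipogenic progenitors. Of 8 fibrogenic genes tested in DIFF, against 16.1% of all genes called higher and 17.5% called lower, 4 rose in DMD, namely ACTA2 (smooth muscle actin, log2 3.54), TNC (tenascin-C, 2.54), CCN2 (1.83) and THBS1 (thrombospondin-1, 1.69), and POSTN (periostin) fell by 5.93. In PROL POSTN fell by 4.31 and TIMP1, an inhibitor of matrix proteases, by 0.90, and TNC rose by 0.63 (edgeR adjusted p = 0.0333), which was not called when WT replicate 1 or 3 or any DMD replicate but 1 was left out (0.0578 to 0.0924) or with library size alone (0.0873). POSTN averaged 24.1 ± 10.1 CPM in DMD DIFF against 1442 ± 214 CPM in WT DIFF, and 44.7 ± 15.0 CPM in DMD PROL against 884 ± 392 CPM in WT PROL. Both WT groups were above both DMD groups, as for CDH11. In DMD SCs POSTN was lower in DIFF than in PROL, while CDH11 was higher. Of 13 adipogenic genes tested in DIFF, 5 rose (FABP5, CIDEA, KLF5, AGPAT2 and PCK2) and 3 fell (RBP4, KLF4 and FASN), with a median log2 fold change of 0.18, beside the same 16.1% and 17.5% of all genes. In PROL 2 of 9 rose (CIDEA and FASN) and 2 fell (RBP4 and KLF4), against 8.36% and 9.87% of all genes. FASN was not called in PROL when any DMD replicate but 2, or WT replicate 3 or 4, was left out (edgeR adjusted p 0.0574 to 0.0791), nor in DIFF without WT replicate 4 (log2 −0.59). RBP4, a retinol carrier, fell by 4.51 in DIFF and by 4.01 in PROL.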

How the data were processed

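According to the study, 3′ libraries with unique molecular identifiers were made from total RNA, each sample as 2 technical duplicates. Reads were demultiplexed with bcl2fastq, deduplicated with UMI-tools, mapped to susScr3, a build of the pig genome, with STAR 2.7.10b and counted per gene by STAR, with R 4.1.2 for later steps. The annotation and the strand setting are not given in the sources used here. The authors deposited 1 raw count per gene and column, with no normalization, in 32 columns. All 124000 values are even, and 608 of 3875 genes had none above 0. The authors' edgeR results were not used.

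The duplicates of a sample were added. No sample column was left out. Genes were fitted in R 4.3.3 with edgeR 4.0.16 (limma 3.58.1): filterByExpr with a minimum count of 10 and a minimum total of 15, TMM scaling, and the robust quasi-likelihood F test, with the 8 libraries of the groups compared, or all 16 for the difference of the state changes (interaction). A call needs a log2 fold change beyond 0.6 in size with a Benjamini-Hochberg adjusted p below 0.05. The SE is the absolute log2 fold change over the square root of F. CPM use TMM factors over 16 libraries, and log2 CPM a prior count of 2. Intervals of 95% on pooled counts are exact and cover counting error only. The fits were tested on simulated data. In the comparisons of the genotypes, p-values measure the spread between animals. The fits between the states and of the interaction took the DIFF and PROL libraries of an animal as independent. The pairing entered only in the alternative with a block.

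The 5 genes and the gene lists were chosen with earlier results of these data known. Genes are named by rule: the 5, DMD, the 3 genes most like each by levels and by deviations, up to 4 called genes per list and direction with the smallest p, the surface markers of the stromal list, and members of any count of 5 or fewer, and a gene that the rule names may be not reported here. Alternatives were library size with or without RN18S, DESeq2 1.42.0, other filters, each technical column alone, halved counts, each animal left out, and a replicate block. DIFF and PROL of a number come from the same animal, and once group means were removed they correlated with r of 0.0998 to 0.172, each best with its own animal.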

Additional observations from a re-analysis of the deposited data

Results flagged for a closer look

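Of 20 sets of 4 libraries (5 genes in 4 groups), 3 held a library whose gap to the nearest of the other 3, over the range of the 4, was above Dixon's 95% critical value, which chance alone passes in about 1 in 20 such sets. SFRP2 in WT PROL was highest in replicate 3, at 4339 CPM. ANGPTL1 in DMD DIFF was lowest in replicate 4, at 2.85 CPM. PI16 in DMD PROL was highest in replicate 3, at 1.16 CPM, which stands for 2 counts. The other 3 libraries of that group had no count, so any single library with a count would have passed.

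For 24 genes of the stromal, fibrogenic, Wnt, cadherin and angiopoietin lists, the state change differed between DMD and WT SCs in the edgeR fit of all 16 libraries, 14 upward and 10 downward (log2, DMD minus WT). The genes tested in these lists were 22, 8, 7, 5 and 3, with CTNNB1 in both the Wnt and the cadherin list. Of all 2030 genes tested, 477 (23.5%) were called in this fit in either direction. Upward were the stromal genes IGF1 (4.84), CXCL14 (3.75), COL5A1 (1.44), MFAP5 (1.30), COL5A2 (1.17) and COL1A2 (0.84), the fibrogenic genes ACTA2 (3.40), THBS1 (2.23), TNC (1.91), CCN2 (1.90) and TIMP1 (1.00), and DKK3 (2.73), ANGPTL4 (2.27) and VCL (1.10). The value of IGF1 rests on 14 counts in DMD PROL, and 1 library gave 102 of its 138 counts in WT PROL. Downward were the stromal genes EFEMP1 (−4.88), CXCL12 (−3.83), IGFBP6 (−2.54), LUM (−2.06), BMP4 (−1.97), PLAC9 (−1.79), LOX (−1.75) and DCN (−1.34), and POSTN (−1.61) and PCDH7 (−1.19). EFEMP1 had an edgeR adjusted p of 4.10e-06 and BMP4 of 1.55e-05. With library size alone as the scale POSTN (adjusted p = 0.0849) and PCDH7 (0.0608) were not called. With the animal as a block all 24 were. Of the other lists, beside the same 23.5% of all genes, 4 of 13 adipogenic genes differed upward and 3 downward, and 8 of 12 myogenic markers downward. Upward too were 1 of 2 endothelial markers and 4 of 5 pericyte and smooth muscle markers (ACTA2 among them), while 1 of those 5 differed downward.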

How the results depend on the processing

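Of 253 values of the 5 genes under an alternative, 6 moved by more than the spread between animals and none changed sign. PI16 in DIFF (DMD over WT) was −5.84 with the first technical column alone, and its WT state change 4.92 with the first and 6.61 with the second, and 5.21 to 6.55 leaving out 1 animal. The WT state change of CDH11 was 1.53 with library size alone and 1.53 without RN18S. The stromal genes called higher in PROL were 0 with the second column alone and 1 to 3 leaving out 1 animal (1 without DMD replicate 1 or 2). Those called lower in the WT state comparison were 0 with the second column and 0 to 1 leaving out 1 animal (0 without WT replicate 2 or 4). DPP4 in DIFF ran from −0.17 to 0.26 leaving out 1 animal, with a change of sign without WT replicate 3 (−0.17) or DMD replicate 4 (−0.066), and was −0.22 with the first column, never called.

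Library size in place of TMM shifted the median of all genes by −0.15 in PROL, 0.14 in DIFF, −0.073 between the DMD states, −0.35 between the WT states and 0.28 in the interaction. The genes called higher and lower became 122 and 264 in PROL (160 and 189 with TMM), 387 and 267 in DIFF (308 and 335), 194 and 563 between the WT states (343 and 275) and 387 and 134 in the interaction (215 and 262). Without RN18S in the library size the WT states gave 194 and 558 and the interaction 368 and 145. With the replicate block the counts were 305 higher and 324 lower in DIFF and 150 and 176 in PROL, and in the WT state comparison 18 stromal genes were higher in place of 16. With the block CXCL14 (edgeR adjusted p = 0.0635) and CNN1 (0.0882) in DIFF and CNN1 (0.0808) and FASN (0.0523) in PROL were not called. DMD and WT animals share a number only, with correlations of −0.027 to 0.099. ANGPTL1 in PROL had no value with the second column or a minimum count of 20, nor PAMR1 in PROL with the first column. The cause of these shifts was not tested. Depth limits PI16 and ANGPTL1 in DMD SCs and PI16 in WT PROL.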

Other observations

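Of the 26 counted stromal progenitor genes, 3 had no count in DMD DIFF, namely C3, MEOX2 and BMP5, picked out after their values were seen. C3, the central complement component, had 70 counts in the highest WT DIFF library, 148 over the WT DIFF group, 4 over DMD PROL and 8 over WT PROL. Against a floor of 3 counts for the DMD DIFF group, that is at least 50.3-fold lower, or 25.1-fold with the counts halved. MEOX2, a homeobox gene, had 38 counts in WT DIFF and 2 each in DMD PROL and WT PROL, at least 12.9-fold lower in DMD DIFF than in WT DIFF on the same floor, or 6.45-fold with the counts halved, and 22 of the 38 counts came from 1 library. BMP5 had 2 counts in DMD PROL and 2 in WT PROL and none in WT DIFF. The WT DIFF animals differed, with C3 at 5.44 to 51.5 CPM.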
